A study of Homo sapiens with 16 samples.

Results

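The estrogen receptor ERβ, encoded by ESR2, was compared with an empty vector for its effect on chromatin binding of p65 in HT29 cells, an established line from a human colorectal adenocarcinoma. p65, the product of RELA, is the transactivating subunit of the commonest NFκB dimer, and the question was whether ERβ changes where and how strongly it binds. The comparison used 8 of the 16 libraries of the series, namely 3 p65 ChIP libraries and 1 input library of HT29 cells stably carrying an empty vector (mock), and 3 p65 ChIP libraries and 1 input library of HT29 cells stably expressing ERβ. All 8 libraries came from cells treated with TNFα at 30 ng/ml for 30 minutes, so no untreated state entered the comparison, and no estrogen treatment is listed for any of them. The mock and ERβ cells are separately engineered populations, so the effect of ERβ and other differences between the populations cannot be told apart. The study describes the 3 ChIP libraries of each condition as biological replicates. Chromatin was crosslinked with DSG for 45 minutes and formaldehyde for 10 minutes. By the study's data statement, the input of the ERβ cells was deposited with another series.

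The genome was divided into 200-bp bins, and the 113261 bins, of 16046655, with a mean signal of at least 1 over the 6 ChIP tracks were kept. Signal is the tag density per base that the authors scaled to a fixed number of tags per library, so the sequencing depth behind a value cannot be read from the tracks, and the read totals that the study lists were not used here. The rule kept 6550 bins with a mean from 1 to 1.02 and left out 6685 bins with a mean from 0.98 to just under 1. Of the kept bins, 6812 (6.01%) had a ChIP signal at least 4 times the mean of the 2 inputs, or of the genome-wide input where that was larger, and are called p65 bins here. A further 61630 bins had an input signal of 1 or more, and 55702 of these lay on chromosome 8. In all, 78234 bins (69.1%) lay on chromosome 8, and 77895 of them past its first 100 Mb, so the set as a whole mostly held a stretch of high input rather than binding. Adjoining p65 bins were joined to 3736 p65 regions, each read at its strongest bin and named by the nearest start of a protein-coding gene, which is not by itself evidence that the gene responds to the region.

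NFκB dimers rest in the cytoplasm, held by IκB proteins, until TNFα signalling through the IκB kinases releases them. They then bind κB sites in DNA and induce chemokines, survival genes and their own inhibitors, and in the colon epithelium this program drives inflammation. Steroid and other nuclear receptors are known to repress NFκB-dependent transcription in several tissues, often without binding DNA through a response element of their own.

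The sequences of 4 p65 regions are shown on the plus strand of hg38, with letters that belong to a match to the κB consensus of 10 bases in capitals. LONRF2, CKAP4 and TBXAS1 are regions whose signal was lower with ERβ past the threshold, and BIRC3 is a strong promoter region that was not called.
LONRF2, chr2:100365401-100365600: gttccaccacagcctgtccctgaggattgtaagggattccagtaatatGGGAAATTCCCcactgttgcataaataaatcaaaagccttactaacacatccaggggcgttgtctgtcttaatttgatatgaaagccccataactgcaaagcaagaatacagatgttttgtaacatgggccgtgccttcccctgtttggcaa
CKAP4, chr12:106274801-106275000: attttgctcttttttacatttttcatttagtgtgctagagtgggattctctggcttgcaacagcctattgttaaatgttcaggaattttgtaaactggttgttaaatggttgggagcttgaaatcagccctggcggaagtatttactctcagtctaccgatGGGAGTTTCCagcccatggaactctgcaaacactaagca
TBXAS1, chr7:139798201-139798400: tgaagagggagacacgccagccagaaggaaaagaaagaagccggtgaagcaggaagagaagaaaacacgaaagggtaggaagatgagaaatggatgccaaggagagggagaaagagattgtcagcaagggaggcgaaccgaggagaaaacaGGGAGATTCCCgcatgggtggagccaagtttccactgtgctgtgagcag
BIRC3, chr11:102317201-102317400: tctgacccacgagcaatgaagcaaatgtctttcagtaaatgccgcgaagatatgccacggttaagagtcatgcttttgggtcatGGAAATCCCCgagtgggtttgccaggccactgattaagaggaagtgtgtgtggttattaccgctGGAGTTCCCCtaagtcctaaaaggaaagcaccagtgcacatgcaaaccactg

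LONRF2, TBXAS1 and BIRC3 each held 2 matches, of which those of LONRF2 and of TBXAS1 overlap, shifted by 1 base, and CKAP4 held 1. A κB match, on either strand, lay in 41.1% of the p65 bins, in 6.4% of the other kept bins and in 2.91% of 14555311 windows of 200 bp across the genome. The AP-1 letters TGACTCA or TGAGTCA lay in 8.76% of the p65 bins and 2.99% of the windows. The palindromic estrogen response element lay in 0 of the 6812 p65 bins, which allows a share of up to 0.044%, against 0.0141% of the windows. RUNX letters (TGTGGTT or TGTGGTC) lay in 5.77% of the p65 bins and 6.18% of the windows, FOXA letters (TGTTTAC) in 5.40% and 3.09%, and the CRE letters TGACGTCA in 0.44% and 0.0691%. None of these letters contains another, a match is a description of the sequence and not a measured site, and most p65 bins held none of the κB letters.

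ERβ status of the libraries was checked on ESR2 itself. Its coding exons carried 4.10 to 7.19 times the signal of its introns in the 3 ERβ ChIP libraries, against 1.11 to 1.36 times in the 3 mock ChIP libraries, and 2.12 and 1.18 times in the ERβ and mock inputs, so all 8 libraries matched their labels. Replicate 1 stood apart in both conditions. Its median signal in p65 bins was 4.36 with mock and 3.73 with ERβ, whereas replicates 2 and 3 had 2.09 and 2.25 with mock and 1.86 and 1.77 with ERβ. The tracks also differed in grain, since steps near a signal of 1 had a median width of 251 bp in ERβ replicate 1, 167 bp in mock replicate 1 and 190 to 202 bp in the other 4 ChIP tracks. In bins of high input the mean signal was 1.5 to 1.53 in the mock libraries and 1.49 to 1.51 in the ERβ libraries, so there the libraries were level.

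**Figure D1:**
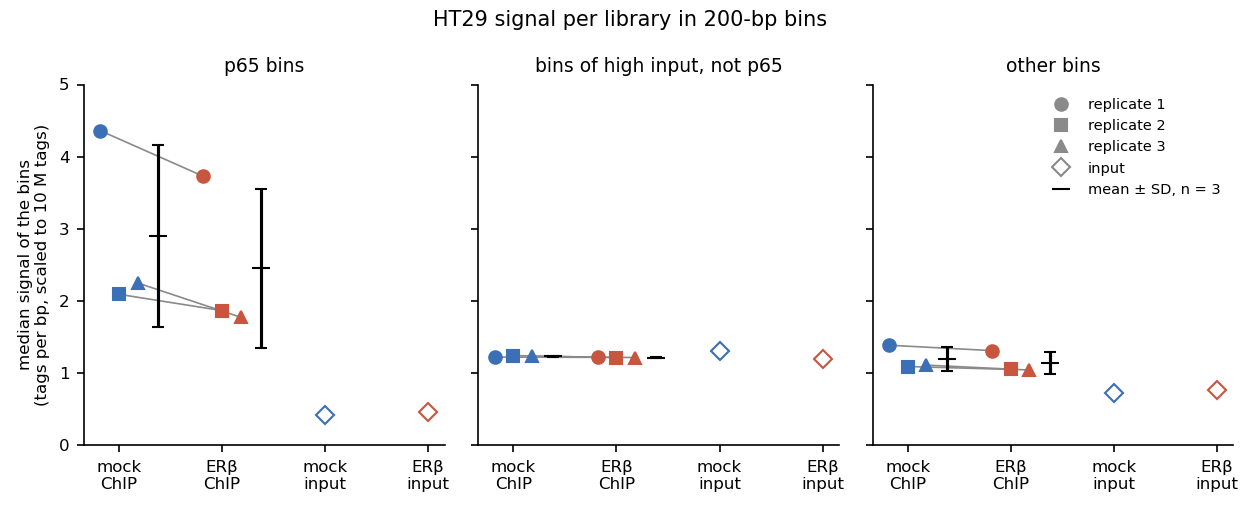
Median signal (tags per base, scaled to the same number of tags per library) in 3 classes of 200-bp bins, for 3 mock and 3 ERβ p65 ChIP libraries (filled symbols, joined within a replicate number) and the 2 inputs (open diamonds), with the mean ± SD of each ChIP group. In p65 bins each ERβ library lies under the mock library of its number, from 4.36 to 3.73, 2.09 to 1.86 and 2.25 to 1.77, and replicate 1 lies above the others in both groups.

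p65 signal was lower with ERβ in each of the 3 pairs of libraries. The mean signal over p65 bins was 5.25, 2.55 and 2.72 in mock replicates 1, 2 and 3 and 4.52, 2.24 and 2.13 in the ERβ libraries. The groups overlapped, because the spread between replicate 1 and the others was larger than the difference, with means of 3.51 ± 1.51 and 2.96 ± 1.35 (SD, n = 3). Within pairs, the excess of the ChIP signal over the input of the same cells differed by -16.2%, -17.5% and -28.2% with ERβ. In the kept bins that were neither p65 bins nor of high input it differed by -18.1%, -19.9% and -26.5%. That class can hold weaker enrichment, since 21497 kept bins met a limit of 2-fold over input. Each excess also rests on 1 input per condition, so whether the lower excess is particular to p65 binding cannot be told. On the scale used for the tests, log2(signal + 1) with the median change of all bins (-0.04, -0.03 and -0.04 in pairs 1, 2 and 3) taken off, the mean change of the p65 bins was -0.14, -0.09 and -0.19, with a mean of -0.14 ± 0.05 (SD, n = 3). Its size depended on the bins and the scale used: it was -0.23 with the input subtracted, -0.18 with no centring, -0.17 with p65 bins taken at 6-fold over input, -0.09 without chromosome 8, -0.06 at a signal minimum of 2, -0.09 with p65 bins taken at 2-fold over input, and 0.0033 when centred on the p65 bins themselves. An exact permutation test of the 3 signs, two-sided, gave p = 0.25, the smallest value that 3 pairs allow, and an exact permutation of the labels gave p = 0.5. With 3 pairs neither of these exact tests can reach 0.05. The mean change was -0.01 in the other kept bins and 0.02 in bins of high input. ChIP signal cannot tell a smaller share of bound cells from less p65 per cell.

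Lower values were spread over many bins. Of the p65 bins, 2304 (33.8%) were lower in all 3 pairs, against 13.6% of all kept bins, and 334 (4.90%) were higher in all 3 pairs, against 13.4% of all kept bins. Each pair was centred on the median of these same kept bins, most of which lay on chromosome 8, so these shares depend on that centring. They were not counted relative to the p65 bins. Single bins seldom passed the test. With limma on all 113261 bins and the replicate number as block, 14 bins were called higher (0.0124% of those tested) and 10 lower (0.00883%) at an adjusted p of 0.05, together 24 (0.0212%), and among the p65 bins 0 were called higher and 5 lower. Without the replicate block 0 bins were called in either direction, and leaving out replicate 1, 2 or 3 gave 10, 3 and 0 p65 bins called lower. With the input subtracted 0 bins were called, and without bins of high input 0 p65 bins. Other alternatives gave up to 14 p65 bins called lower. At an unadjusted p under 0.05 the limma fit with the block had 1104 of the 6812 p65 bins lower and 67 higher. Among all 113261 kept bins it had 4094 lower and 3516 higher. Without the block 61 p65 bins were lower and 10 higher at that limit. Centred on the p65 bins the counts were 272 lower and 326 higher, and without chromosome 8 they were 645 and 118.

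The mean change was further below 0 in bins with a κB match than in bins without one, in all 3 pairs. Bins with a match had mean changes of -0.19, -0.12 and -0.22 in the 3 pairs, and bins without one had -0.11, -0.07 and -0.17. The difference was -0.06 ± 0.02 (SD, n = 3 pairs), with the same sign in all pairs (exact permutation test of signs, two-sided, p = 0.25, the smallest possible). It was -0.06 among bins with a mean signal under 4 and -0.04 among stronger ones, and the median signal was 2.97 in bins with a match and 2.51 in those without. With and without an AP-1 match the mean change was -0.14 and -0.14. By strength, the mean change was -0.10 in the 1855 p65 bins with a signal of 1 to 2, -0.14 in the 3409 bins of 2 to 4, -0.18 in the 1335 bins of 4 to 8 and -0.20 in the 213 bins of 8 or more. That order did not hold in pair 1, in which the strongest bins had -0.12 and the weakest -0.14. The pseudocount shrinks changes at low signal.

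Promoter and distal p65 bins did not differ beyond the spread between pairs. The 1516 bins in promoters, from 1 kb before to 100 bp after a protein-coding start, had mean changes of -0.13, -0.15 and -0.22 in the 3 pairs, and the 5296 distal bins -0.15, -0.08 and -0.18. The difference was 0.01, -0.07 and -0.04, with a mean of -0.03 ± 0.04 (SD, n = 3; exact permutation test of signs, two-sided, p = 0.5), smaller than its spread. Distal bins within 50 kb of a start had -0.14 and those farther away -0.13. Base composition moved with the change: bins with under 40% G and C had -0.06, those with 40 to 50% had -0.10, those with 50 to 60% had -0.16 and those with 60% or more had -0.19, while the median difference between the 2 inputs in the same classes went from -0.05 to 0.14, the other way. The part of base composition in the result was not tested.

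**Figure D2:**
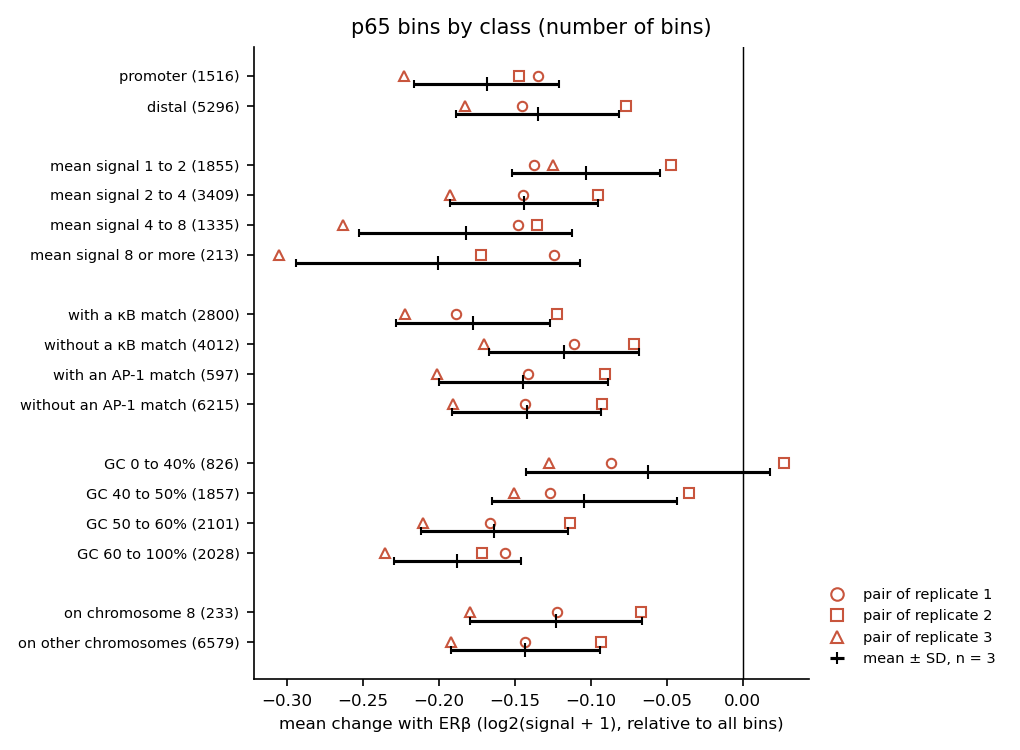
Mean change with ERβ (log2(signal + 1), relative to the median of all bins) in classes of p65 bins, with 1 open symbol for each pair of libraries and the mean ± SD of the 3 pairs in black. Bins with a κB match sit further below 0 than bins without one in every pair, promoter and distal bins overlap, and 1 of the 3 pairs is above 0 for bins of under 40% G and C.

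Among the 3736 p65 regions, 3002 (80.4%) had a change under 0 relative to the median of all bins. Relative to the median of the p65 bins, 2053 of the 3736 regions had a change under 0, so that share depends on the centring. Relative to all bins, 1417 regions (37.9%) were lower in all 3 pairs, with a median of -0.33. On the same scale 136 (3.64%) were higher in all 3 pairs, with a median of 0.24. Promoter regions made up 21.3% of all regions, 23.8% of those lower in all pairs and 14.0% of those higher in all pairs. Regions with a κB match made up 61.4%, 65.3% and 48.5%, so the regions lower in all pairs were close to the whole and the 136 higher ones lay further from it. The higher ones were also weaker, with a median signal of 2.83, 3.19 and 2.19 in the same order. The part of signal strength in these shares was not tested. The surroundings, taken 10 to 50 kb to either side, were read in the same tracks. A ChIP change over 0.1 in the surroundings was found at 11.8% of the regions higher in all pairs, 1.34% of those lower in all pairs and 2.62% of all regions, and the part of the surroundings in the higher values was not tested. On the first 43 Mb of chromosome 8 the median change of 19 regions was 0.07, beside 0.17 in their ChIP surroundings and 0.22 in the input surroundings, whereas the 115 regions on the rest of that chromosome had a median of -0.19.

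**Figure D3:**
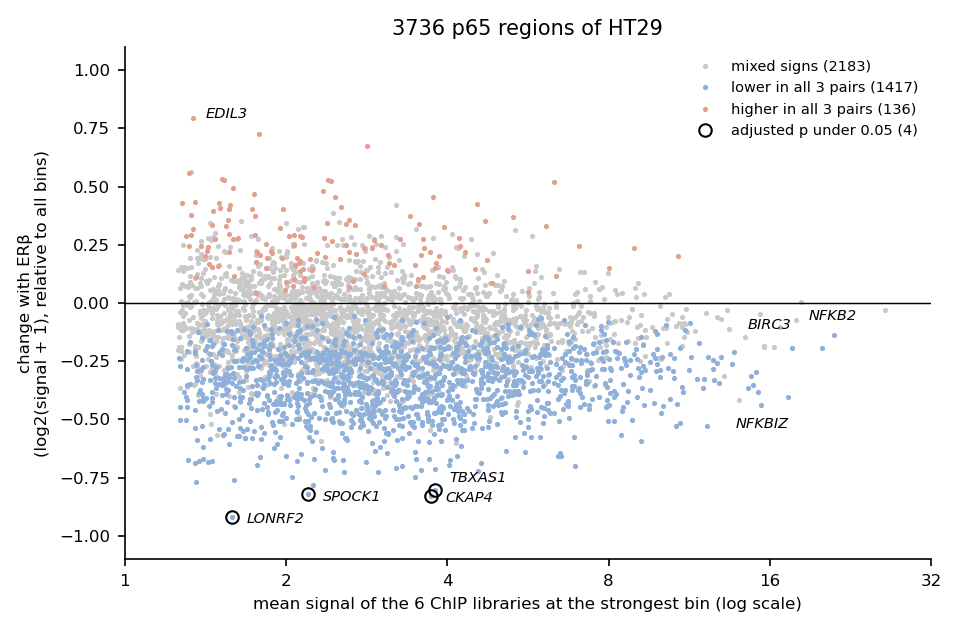
Change with ERβ (log2(signal + 1), relative to all bins) against the mean signal of the 6 ChIP libraries at the strongest bin (log axis), 1 point for each of 3736 p65 regions. The points lie mostly under 0, with 1417 lower and 136 higher in all 3 pairs, and the 4 ringed regions passed an adjusted p of 0.05 (limma).

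None of the 5 called p65 bins lay in a promoter, where 22.3% of all p65 bins lay, so with 5 bins nothing is read from their position. The region with the largest change lay between genes at -42999 bp from the start of LONRF2 (negative values are upstream), which encodes a RING-finger protein. Its signal was 4.21, 1.52 and 1.58 in the mock libraries and 1.47, 0.456 and 0.292 in the ERβ libraries, beside inputs of 0.271 and 0.24. ERβ replicate 3 was near the input there, and each ERβ library was below all 3 mock libraries. The change was -0.92 ± 0.18 (SE), with an adjusted p of 0.00609 (limma). The mean of the ERβ libraries, 0.74, was under the signal minimum, so this bin was kept only through the mock libraries, a choice that favours a lower value with ERβ, and nothing further is read from its call. In an intron of TBXAS1, the thromboxane synthase gene, the signal was 8.25, 3.34 and 3.76 in the mock libraries and 4.45, 1.39 and 1.57 in the ERβ libraries. Replicate 1 with ERβ was above mock replicates 2 and 3, so the groups overlapped although each pair was lower, and the change was -0.80 ± 0.18 (SE) with an adjusted p of 0.0383 (limma). The region in an annotated intron of CKAP4, at -26880 bp from the nearest start of that gene, which codes for a membrane protein of the endoplasmic reticulum, had a signal of 7.51, 4.22 and 3.33 in the mock libraries and 4.46, 1.63 and 1.22 in the ERβ libraries, a change of -0.83 ± 0.18 (SE) and an adjusted p of 0.0275 (limma). The region between genes 544694 bp downstream of the start of SPOCK1, the gene of a secreted proteoglycan, had a signal of 5.07, 2.38 and 1.93 in the mock libraries and 2.36, 0.739 and 0.728 in the ERβ libraries, with a change of -0.82 ± 0.18 (SE) and an adjusted p of 0.0383 (limma). In the CKAP4 and SPOCK1 regions alike, the ERβ value of replicate 1 lay within the mock range and those of replicates 2 and 3 lay below it. The SPOCK1 bin met the limit for a p65 bin only through its mock libraries, so its call has the same limit as that of LONRF2, whereas the CKAP4 and TBXAS1 bins met it in both groups.

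The fifth called p65 bin lay 4298 bp past the start of DNM1, the gene of a dynamin that cuts off membrane vesicles, and was not the strongest bin of its region. Its signal was 6.62, 2.12 and 2.91 in the mock libraries and 3.69, 0.992 and 0.709 in the ERβ libraries, with a change of -0.81 ± 0.18 (SE) and an adjusted p of 0.0481 (limma). In each of these 5 bins all 3 pairs were lower, but none was called without the replicate block, as given with the processing alternatives. Over the alternatives that kept the bin or one overlapping it, LONRF2 was called in 12 of 17 and CKAP4 in 9 of 18. TBXAS1, SPOCK1 and DNM1 were each called in 6 of 18. The next 6 regions by size, none of them past the threshold, were at RNLS (-0.78, adjusted p = 0.0881 in limma), KRTAP10-1 (-0.77), FMNL2 (-0.76), PSME1 (-0.75), TET3 (-0.75) and TAF6L (-0.73), of which all but TET3 met the limit for a p65 bin only through the mock libraries. PSME1 encodes a proteasome activator subunit, FMNL2 an actin-assembling formin, and TET3 an oxygenase of methylated cytosine. At the TET3 promoter the signal was 5.92, 4.17 and 3.4 in the mock libraries and 4.68, 1.02 and 1.7 in the ERβ libraries. The spread between its pairs was wide, with -0.25 in pair 1 and -1.33 in pair 2.

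No p65 bin was called higher. The region with the largest positive value lay at -51220 bp from the start of EDIL3, which encodes a secreted integrin ligand, and had a signal of 1.39, 0.49 and 0.354 in the mock libraries and 2.96, 1.6 and 1.27 in the ERβ libraries. The lowest ERβ library was below mock replicate 1, but each pair was higher, by 0.76, 0.83 and 0.79, and the change of 0.79 ± 0.18 (SE) had an adjusted p of 0.0527 (limma) and did not pass. The mean of the mock libraries there, 0.745, was under the signal minimum, so the bin was kept only through the ERβ libraries, which favours a higher value with ERβ. Next came B3GALT9 (0.73), a glycosyltransferase gene, KATNAL1 (0.68), which codes for a microtubule-severing subunit, and the ARL6IP5 promoter (0.56), with adjusted p-values of 0.148, 0.225 and 0.494 in limma. The other 6 of the 10 largest were at SPATA13, ASAP2, TLE1, OTUD1, PTK2 and C1orf105, with changes of 0.49 to 0.53. TLE1 is a corepressor that pairs with Wnt and Notch effectors, and at its region the signal was 4.35, 0.7 and 0.84 in the mock libraries and 4.83, 1.77 and 1.89 in the ERβ libraries. Of these 10 regions 9 had a mean signal under 4, and the exception was an intronic region of PTK2, the gene of focal adhesion kinase, with a signal of 9.52, 3.05 and 3.32 in the mock libraries and 10.9, 6.28 and 4.82 in the ERβ libraries. All of these 10 but TLE1 and OTUD1 met the limit for a p65 bin only through the ERβ libraries, which favours a higher value. PTK2 is among them, with a mock mean of 5.3 beside inputs of 1.71 and 1.17. At ARL6IP5 the mock mean of 0.912 was also under the signal minimum.

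**Figure D4:**
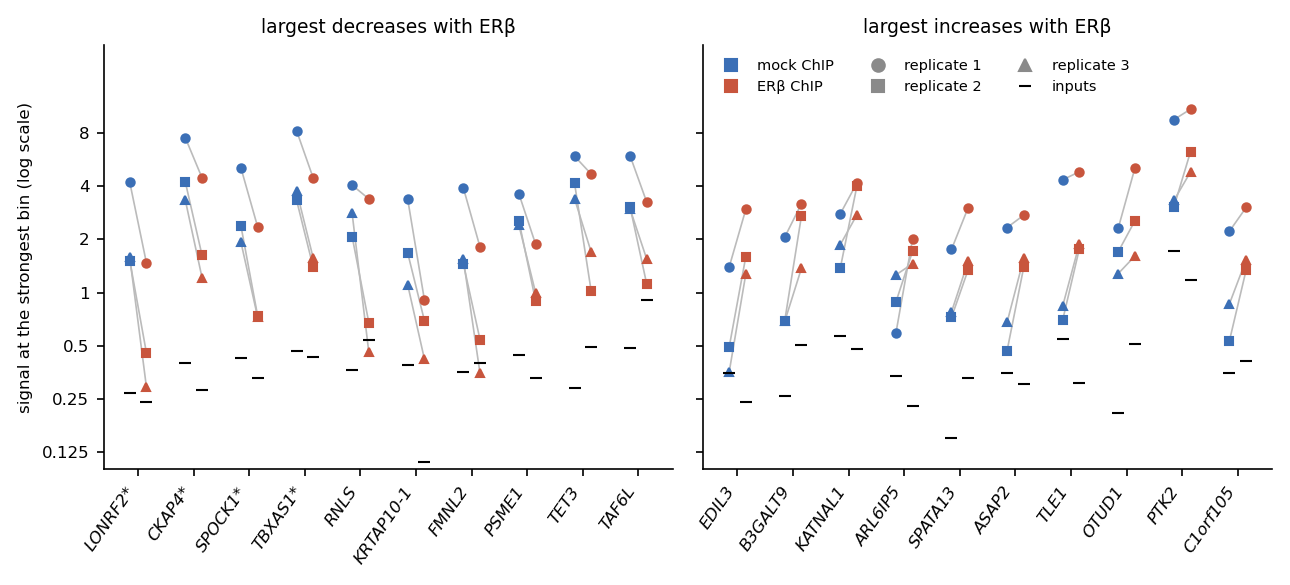
Signal at the strongest bin (log axis) of the 10 p65 regions with the largest decreases and the 10 with the largest increases that had the same sign in all 3 pairs, in mock (blue) and ERβ (red) libraries joined by replicate number, with the inputs as black dashes. Asterisks mark the 4 regions with an adjusted p under 0.05 (limma), all of them decreases, at LONRF2, CKAP4, SPOCK1 and TBXAS1.

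Outside the p65 bins, 14 bins were called higher and 5 lower, and most of those called higher had a high input. Among those called higher, 11 had an input signal of 10 or more, 4 of them in 1 stretch of chromosome 3 and 7 on unplaced sequence. The inputs differed in the opposite direction in all but 1 of these 11. A further 2 lay at ESR2, with a change of 1.26 at the stronger of them, where the ERβ input was also above the mock input. Both overlap a coding exon of ESR2, the part of the gene read in the check of the labels, and are not read as p65 binding. The remaining bin lay at -73631 bp from the start of KIAA1217, with a signal of 0.476, 0.266 and 0.33 in the mock libraries and 3.24, 1.29 and 0.988 in the ERβ libraries. All 3 ERβ values were above all 3 mock values there, and the change was 1.02 ± 0.20 (SE), with an adjusted p of 0.0106 (limma). The mock mean of 0.357 was under the signal minimum, so this bin, like both at ESR2, was kept only through the ERβ libraries, and nothing further is read from its call. Of the 5 lower bins, 1 was on chromosome Y and 4 lay near SH3PXD2A (-0.88), DUSP1 (-0.89), ASCC3 (-0.84) and DPP7 (-0.87). The ERβ means at SH3PXD2A, ASCC3 and the chromosome Y bin, 0.919, 0.982 and 0.534, were under the signal minimum. Those bins were kept only through the mock libraries, which favours a lower value with ERβ, and nothing further is read from their calls.

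Regions were then read by gene group, from 23 lists. In none of the lists was a region called in either direction at its strongest bin (limma), although the called bin near DUSP1 adjoins the DUSP1 region of the MAP kinase feedback list without being a p65 bin. Among all 3736 regions only those at LONRF2, CKAP4, SPOCK1 and TBXAS1 were called, so the lack of calls is not read as a result about the listed genes. The median change was under 0 in all 23 lists, from -0.27 to -0.08, beside -0.17 for all 3736 regions. Relative to the median of the p65 bins instead of all bins, which adds 0.15 to every change, 18 list medians were under 0 and 5 over 0, so the sign of a list's median depends on that choice while its place among the regions does not. A list's count of regions lower in all 3 pairs is to be read against 37.9% of all regions.

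Genes of the NFκB proteins had 7 p65 regions at all 5 genes, of which 4 were lower and 0 higher in all pairs, with a median of -0.17. The largest difference was at the promoter of NFKB1, the p105 and p50 subunit, with a signal of 17.7, 8.88 and 9.12 in the mock libraries and 12.2, 5.04 and 7.72 in the ERβ libraries and a change of -0.44 ± 0.14 (SE), adjusted p = 0.489 (limma). Each pair was lower there, and the groups overlapped through replicate 1. The promoter of NFKB2, the p100 and p52 subunit, was the second strongest region of the line by ChIP signal, with 31.2, 16.6 and 19.1 in the mock libraries and 28.2, 14.3 and 16.8 in the ERβ libraries and a change of -0.14. The strongest regions of RELA and RELB had changes of -0.17 and -0.01. Inhibitors and feedback genes had 26 regions at 10 of 14 genes, with 7 lower and 1 higher in all pairs and a median of -0.16. Members with a like signal had unlike values, and the difference between them was not tested. NFKBIA, the IκBα gene, had 22.8, 10.7 and 13.2 in the mock libraries and 24.3, 10.4 and 10.4 in the ERβ libraries, a change of -0.05 ± 0.12 (SE). NFKBIZ, the gene of the nuclear IκB protein IκBζ, had 25.4, 14.2 and 14 in the mock libraries and 20.1, 9.81 and 8.82 in the ERβ libraries, a change of -0.44 ± 0.12 (SE) with an adjusted p of 0.252 (limma). At NFKBIA pairs 1 and 2 were at 0.12 and 0.00 and pair 3 at -0.27, whereas at NFKBIZ all 3 pairs were lower. TNIP1, which binds the ubiquitin-editing enzyme A20, had a change of -0.41 made by pairs 2 and 3 (-0.64 and -0.66) and not by pair 1 (0.06). The shared SIRT2 and NFKBIB promoter, the latter coding for IκBβ, had a change of -0.10. Upstream signalling genes, from the TNF receptor adaptors to the IκB kinases, had 18 regions with a median of -0.17 and 6 lower in all pairs. Among the strongest, IRAK2, a kinase of the interleukin-1 receptor pathway, was lower in all 3 pairs (-0.44, adjusted p = 0.498 in limma), and TRAF2, TANK and MAP3K8 had -0.12, -0.11 and 0.07.

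The neutrophil chemokine genes, whose products bind the receptor CXCR2, had 10 regions, 2 lower and 1 higher in all pairs, with a median of -0.09. The promoter of CXCL8 had a signal of 16.4, 9.4 and 9.47 in the mock libraries and 12.6, 8.92 and 9.79 in the ERβ libraries and a change of -0.09 ± 0.13 (SE), with pairs on both sides of 0. CXCL1 and CXCL3 were lower in all 3 pairs (-0.22 and -0.24), and CXCL2 had -0.10. Other chemokines and cytokines had 23 regions, 9 of them lower in all pairs, with a median of -0.13. CCL20, which attracts lymphocytes and dendritic cells (-0.26), and IL32 (-0.27) were lower in all pairs, and CSF1 (-0.17) had pairs on both sides of 0. Apoptosis and survival genes had 26 regions, 8 lower in all pairs, and the median nearest to 0 of the 23 lists, -0.08. BIRC3, an inhibitor of apoptosis and an NFκB target, had a signal of 22.8, 12.6 and 14.2 in the mock libraries and 23.5, 10.2 and 10.3 in the ERβ libraries and a change of -0.18 ± 0.12 (SE), and BBC3, which promotes apoptosis, had 0.03.

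The lists with medians furthest below 0 were Wnt signalling (-0.27, 14 regions, 5 lower in all pairs), AP-1 subunits (-0.23, 9 regions, 6 lower in all pairs), nuclear receptors and cofactors (-0.22, 30 regions, 14) and Notch signalling (-0.22, 17 regions, 6). The 4 strongest Notch genes were nearer to 0 than that median, with MAML2 at -0.03, LFNG at -0.05, HES1 at -0.08 and NRARP at -0.20, each with pairs on both sides of 0. These lists are short, and their difference from the other regions was not tested. JUNB, an AP-1 subunit gene with a strong region in an intron of HOOK2, had a signal of 16.9, 9.33 and 9.55 in the mock libraries and 14.8, 5.72 and 6.26 in the ERβ libraries and a change of -0.41 ± 0.14 (SE). All 3 pairs were lower, and the groups overlapped through replicate 1. MAFK had -0.41. The strongest JUN region, between genes at -31853 bp from its start, had -0.23, while the weaker JUN promoter region had 0.10. Among the nuclear receptors, NR4A1 had -0.28, the corepressor gene NRIP1 -0.27 and VDR, the vitamin D receptor gene, -0.07. MAP kinase feedback genes had a median of -0.21 over 15 regions, of which 6 were lower in all pairs, DUSP1 (-0.48) and DUSP16 (-0.29) among them, while DUSP10 (0.03) and SPRY4 (-0.05) had pairs on both sides of 0. Interferon response and antigen presentation genes had a median of -0.21 over 20 regions, with 9 lower in all pairs, while regions at IRF1, IFNGR2 and OAS3, among their strongest, had -0.27, -0.21 and 0.01.

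Genes of the epithelium and of growth control lay near the middle of the regions. Adhesion and migration genes had 37 regions, 15 lower in all pairs, with a median of -0.20. Their strongest region, in an intron of PTK2, had the highest signal of the line, with 37.4, 21.8 and 20.4 in the mock libraries and 39.9, 19.7 and 18.2 in the ERβ libraries. Its change was -0.03 ± 0.09 (SE), and the SDC4 promoter had -0.19. The PTK2 region lies on chromosome 8 with inputs of 1.76 (mock) and 1.08 (ERβ), beside a genome mean of 0.314. The rank is by ChIP signal and takes no account of the input. Mucosal defence and barrier genes had 9 regions, all with a change under 0 and a median of -0.19, which on the scale relative to p65 bins left 6 under 0. Relative to all bins, every region of the clock and Wnt lists was under 0 too, beside 80.4% of all regions. MUC5AC, a secreted mucin gene, had 10.7, 7.3 and 6.9 in the mock libraries and 6.82, 5.54 and 5.22 in the ERβ libraries, lower in all 3 pairs, with a change of -0.39 ± 0.15 (SE), and LCN2, an antibacterial lipocalin gene, had -0.27. The 27 regions of TGF-beta and BMP genes had a median of -0.18, with SMAD3 at -0.38 and SMAD6 at -0.45, both made mostly by pair 3, and TGIF1 at -0.08 and BMP2 at 0.02, both with pairs on both sides of 0. The clock genes had 12 regions, 4 lower in all pairs, and a median of -0.18. CREB1 had -0.16, CRY2 -0.15 and PER1 -0.18, each with pairs on both sides of 0, and KLF10 had -0.35 and was lower in all 3 pairs. Cell cycle genes had a median of -0.15 over 14 regions, with CCND1 at -0.28. The region assigned to MYC, strong by signal but with inputs of 1.71 (mock) and 1.44 (ERβ), had -0.03. EGFR ligands and receptors (-0.19, 11 regions), KLF factors (-0.14, 19), oxidative stress and prostaglandin genes (-0.20, 10), colon identity factors (-0.16, 23) and ribosomal protein genes (-0.12, 12) complete the lists. PTGS2, the inducible cyclooxygenase gene, had -0.12, and the RPS2 promoter -0.64, adjusted p = 0.159 (limma).

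**Figure D5:**
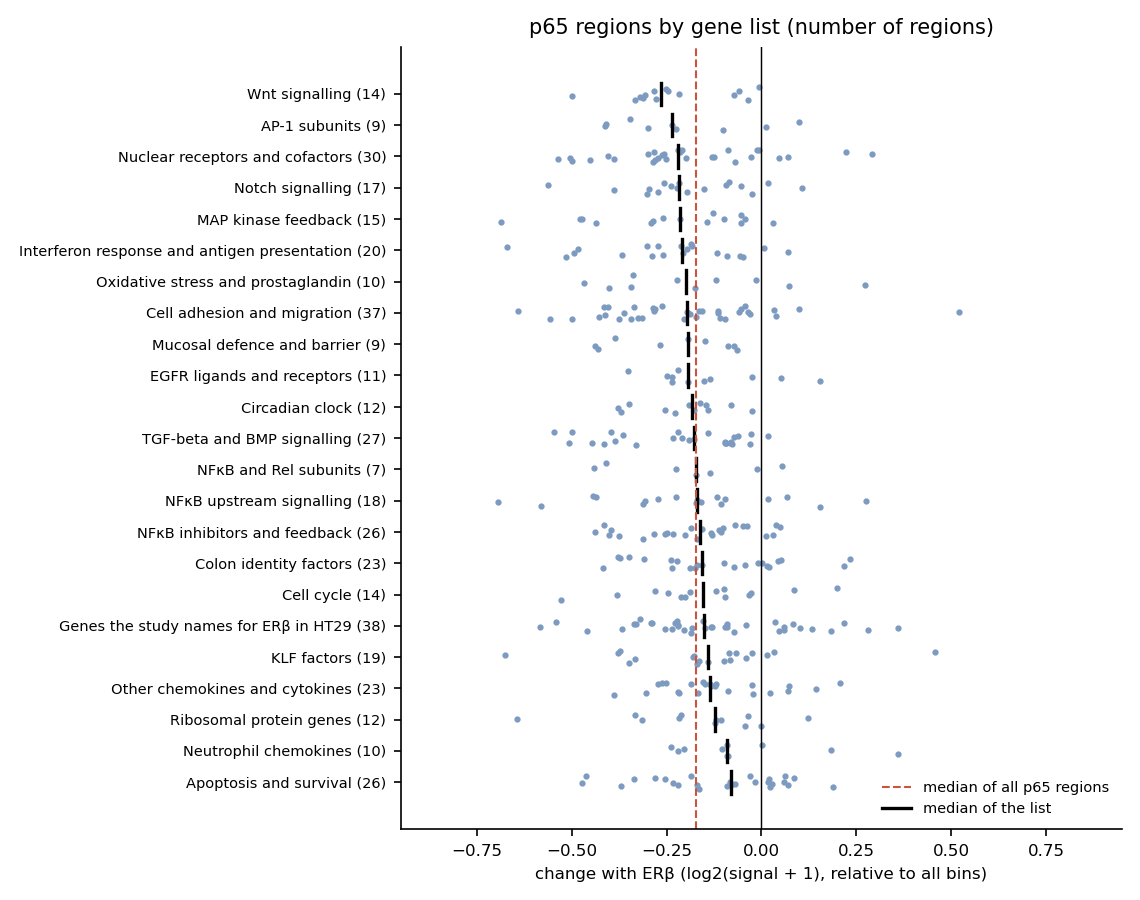
Change with ERβ (log2(signal + 1), relative to all bins) of each p65 region, 1 point a region, by gene list with the number of regions, the list's median as a black bar and the median of all 3736 regions (-0.17) as a dashed line. List medians range from -0.27 to -0.08, and relative to the median of the p65 bins 5 of the 23 would lie over 0.

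A last list held genes that the study itself names for ERβ in HT29, which were chosen on these samples and so are not independent evidence. It had 38 regions at 24 of 27 genes, of which 16 were lower and 2 higher in all pairs, with a median of -0.15. The study reports p65 binding as enhanced by ERβ at TSC22D1, VEGFA, AGO2 and IGFL4, and as apparently enabled at PROX1. It reports sites opposed by ERβ at CLOCK, BMAL2, NFIB and CXCL10, and binding with and without ERβ at BIRC3, CXCL1, CXCL8 and PDGFB. The list mixes these directions, so its median and counts are not set against the study. Lower in all 3 pairs were NUAK1 (-0.58), PIM3 (-0.54), APOBEC3B (-0.37), SLC9A8 (-0.32), SEC24A (-0.29), BMAL2 (-0.25), CLOCK (-0.23), NFIB (-0.20), CSF2 (-0.15) and CXCL1. At NUAK1, a kinase gene, the signal was 7.72, 4.39 and 3.65 in the mock libraries and 4.63, 2.16 and 2.38 in the ERβ libraries. VEGFA, the endothelial growth factor gene, was the member whose strongest region was higher in all pairs, by 0.12, 0.09 and 0.10, with 5.08, 2.8 and 2.38 in the mock libraries and 5.42, 2.96 and 2.52 in the ERβ libraries and an adjusted p of 0.961 (limma). Values with pairs on both sides of 0 included those of PROX1 (0.22), IGFL4 (0.28), TSC22D1 (0.08), AGO2 (0.05), GOLGA7B (0.06), IER2 (-0.04), PDGFB (-0.07), BMP4 (-0.10), CXCL10 (-0.22), PIEZO1 (-0.22) and GCH1 (-0.29).

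The same bins in SW480 cells, another colorectal adenocarcinoma line, likewise labelled as stably transfected with ERβ or an empty vector, had positive mean changes in all 3 pairs. The SW480 libraries are listed with the same TNFα treatment and crosslinking as those of HT29. The study states that the introduced ERβ is more highly expressed in SW480 than in HT29, so ERβ level and line cannot be told apart in this comparison. Over the 6812 p65 bins of HT29 the mean change in SW480 was 0.26, 0.64 and 0.52 in replicates 1, 2 and 3, a mean of 0.47 ± 0.20 (SD, n = 3), against -0.14, -0.09 and -0.19 in HT29. The lines differed by 0.62, and an exact permutation test over the 6 pairs, two-sided, gave p = 0.1, the smallest possible. By the interaction term of limma on the 12 ChIP libraries, 2533 of all bins (2.24%) had a higher and 82 (0.0724%) a lower change in SW480 than in HT29, and among the p65 bins 1313 were higher and 0 lower. That count was 5 without the replicate block, and 928, 80 and 57 without replicate 1, 2 or 3. Pairing by replicate number was checked in the HT29 libraries alone. The changes in SW480 at the 4 regions called in HT29 were 0.71 at LONRF2, 1.02 at CKAP4, 0.42 at SPOCK1 and 0.28 at TBXAS1, beside the mean of 0.47 over all p65 bins, and nothing is read from their sign. NFKB1 differed between the lines by 1.31 ± 0.27 (SE, adjusted p = 0.00684, limma). The promoters of CXCL1, CXCL2 and CXCL3 also passed, with 1.47, 1.31 and 1.20 (adjusted p = 0.00165, 0.00607 and 0.00874, limma), whereas NFKBIA, with 0.43 ± 0.24 (adjusted p = 0.438, limma), and CXCL8, with 0.32 ± 0.30 (adjusted p = 0.707, limma), did not pass. The p65 bins were chosen on HT29 signal alone, and bins bound in SW480 but not in HT29 are not among them.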

How the data were processed

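Per the study's methods, the authors mapped unique reads to hg38 with STAR. The submitters' processing notes also name HOMER, and the track names have the form that HOMER gives. The deposited values are signal (coverage), scaled by the authors to the same number of tags per library (10 M with fragments of 100 bp, read from the track names and totals), and values under 0.05 are absent. Tool versions are not given in the sources used here. The tracks hold no counts, so depth cannot be read from them, no counting interval was computed, and the read totals that the study lists were not used here.

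Each track was averaged over 200-bp bins. Bins with a mean of at least 1 over the 6 ChIP tracks were fitted as log2(signal + 1) with limma 3.58.1 (R 4.3.3), with the replicate number as block, a mean-variance trend and the change of each pair centred on the median over all bins. p-values were adjusted by Benjamini-Hochberg over 113261 bins, with a threshold of 0.05. p65 bins had a mean signal at least 4 times the larger of the mean input in the bin and the genome mean input of 0.314. They were joined over gaps of up to 400 bp. Gene starts came from GENCODE 44. The members, lists and tests were chosen with earlier results of these data known. A region entered a list through its nearest gene or any gene whose promoter held it, and the promoter clause was added after seeing the data.

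Regions were named by rule: the 10 largest changes in each direction with 1 sign in all pairs, those past the threshold first, the 10 strongest regions, up to 4 of the strongest genes per list, every gene of the list the study names, and the 3 strongest bins that are not p65 bins. Some regions and sequences that the rule names are not reported here. The labels do not say what a replicate number shares. Deviations from the condition means correlated between libraries of the same number at 0.48, 0.19 and 0.17 over all bins, each over the limit of 0.1, so the numbers were taken to pair the libraries. Over the p65 bins alone they were 0.31, 0.103 and 0.0967, the last under that limit. Over all bins mock replicate 2 correlated with ERβ replicate 3 at 0.21, and mock replicate 3 with ERβ replicate 2 at 0.15. Both values are over the same limit, so the check cannot show that numbers 2 and 3 are rightly matched. Binning used Python 3.11.15 with numpy 2.4.6 and pandas 2.3.3.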

Additional observations from a re-analysis of the deposited data

Results flagged for a closer look

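The change with ERβ differed between SW480 and HT29 in 1313 of the 6812 p65 bins by the interaction term of limma, all of them higher in SW480. The count fell to 5 without the replicate block, and was 928, 80 and 57 without replicate 1, 2 or 3. The difference over all p65 bins was 0.62 on the log2(signal + 1) scale (exact permutation test, two-sided, p = 0.1, the smallest possible with 3 pairs in each line).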

How the results depend on the processing

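The p65 bins had a mean change under 0 in every alternative except centring on the p65 bins themselves, which by construction took it to 0.0033, and otherwise between -0.23 (input subtracted) and -0.06 (signal minimum of 2), with -0.09 without chromosome 8. The promoter minus distal difference stayed under 0, from -0.08 to -0.02. Single calls were less stable.

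Without the replicate block, 0 bins were called higher, 0 lower and 0 p65 bins lower, and the lines differed at 16 bins and 5 p65 bins. Leaving out 1 replicate gave 5 to 31 bins called higher, 2 to 12 lower, 0 to 10 p65 bins lower, and 110 to 1607 bins and 57 to 928 p65 bins that differed between lines. With no centring, 22 bins and 11 p65 bins were called lower and 4027 bins differed between lines. Centred on p65 bins, 105 were called higher and 1 lower, with 3 and 1 among p65 bins. A pseudocount of 0.25 gave 1 p65 bin higher and 3 lower. A signal minimum of 0.5 gave 29 bins higher and 1 p65 bin lower, and a minimum of 2 gave 44 higher and 18 lower, with 2 and 14 among p65 bins. With input subtracted, 0 bins were higher, 0 lower and 0 p65 bins lower. Bins moved by 100 bp gave 18 bins lower, with 2 p65 bins higher and 13 lower, and 400-bp bins gave 20 lower, with 1 and 14. p65 bins at 2-fold over input held 2 higher and 9 lower, and at 6-fold 3 lower. Without bins of high input, 2 bins were higher, 0 lower and 0 p65 bins lower. limma without a trend called 3 higher, 1 lower and 1 p65 bin lower. Without chromosome 8, an alternative chosen after seeing the data, 1 bin and 1 p65 bin were called lower. The causes were not tested.

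None of the called bins changed sign in an alternative. Among all 152 named bins, centring on p65 bins turned the sign of 31 and a minimum of 2 that of 23 of 135. The tracks do not show depth, and 3 pairs cannot pass an exact sign or label test at 0.05.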

Other observations

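Median changes per whole chromosome over p65 regions ran from -0.23 on chromosome X, where 37 of 77 regions were lower and 0 higher in all 3 pairs, to -0.12 on chromosome 19. Regions with RUNX letters made up 5.46% of all regions, 4.23% of those lower in all pairs and 13.2% of those higher in all pairs (18 of 136), and p65 bins with these letters had a median change of -0.08 against -0.15 without them. That contrast was noticed in the data and was not tested.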
